A study of Mus musculus with 908 samples.

Results

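The genes described here are the metallothioneins Mt1, Mt2 and Mt4, the zinc-sensing transcription factor Mtf1 and the zinc exporter Slc30a1, followed across single tumour cells of mouse skin squamous cell carcinoma. They are 5 of 46517 gene rows, matched by symbol, and each symbol had 1 row. The set was proposed with their TPM levels in these cells already in view, so the levels and the differences between groups are given as descriptions, with no test.

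Each library was made from 1 sorted cell with Smart-seq2, a full-length cDNA method, and sequenced with 75 cycles. Before adoptive cell transfer, the infusion of immune cells as a treatment, the mice were of strain TRE-HrasG12V;SBE-mCherry-PGK-rtTA3, and after it of strain TRE-OVA;TRE-HrasG12V:PGK-rtTA3P2AmCherry. All animals were aged P60 to P90 and of mixed sex, and the oncogenic Hras transgene was carried by every group. The strain names place it under the TRE promoter, which is switched by rtTA. None of the sorted cells were to carry surface CD45 or CD117, and CD140a and CD31 were gated out as well. Reporter-positive cells (73 of 86 libraries of plate CSC1 and 32 of 72 of plate CSC2) were sorted as positive for integrin alpha6, for the mCherry reporter, for CD34 and for CD44. CD44+ reporter-negative cells (plate CD44, 15 of 24) had alpha6 and CD44 but neither mCherry nor CD34. CD44-negative alpha6+ cells (plate DN, 91 of 96) had alpha6 alone. Alpha6-negative cells (plate TN, 43 of 84) had none of the 4 markers. After-transfer cells (87 of 96 libraries of plate OT2 and 90 of 96 of plate OT_B) were sorted on mCherry, which in that strain comes with the PGK construct. Libraries were used when at least 2000 genes had a TPM of at least 1 and came from a plate that repeats no other. TPM is a share of a library's transcripts corrected for gene length, so levels of different genes can be set side by side, and it keeps no read depth. The labels name no animal, so each group counted as 1 sample and no p-value is given. Intervals over cells cover counting error only.

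The plate labels carry a contradiction that touches every before-and-after statement. Over all genes, 71 of the 72 CSC1 wells with both libraries kept had their best match in the same well of plate OT_C, which is labelled as after transfer. The same held for 29 of 30 CSC2 wells and 14 of 15 CD44 wells against plate OT_D. Plates OT1 and OT_A repeated cells of OT_B and OT2 less regularly: 38 of 68 and 46 of 71 same-well pairs were each other's best match. Of the 54 and 67 mutual best matches between these plates with a correlation of at least 0.85 over all genes, 34 and 45 lay in the same well. All 4 repeat plates were left out. Among the libraries used, 1 such pair was found, in different wells of plate TN. Which label the cells of OT_C and OT_D should carry was not resolved, and the values below follow the labels of CSC1, CSC2 and CD44.

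Metallothioneins are small cysteine-rich proteins that bind zinc and copper and buffer them in the cytosol. When free zinc rises, MTF1, the product of Mtf1, moves to metal response elements in DNA and raises transcription of Mt1, Mt2 and Slc30a1. SLC30A1, also called ZnT1, carries zinc out across the plasma membrane. In mouse skin, Mt1 and Mt2 are known from the basal, dividing layer, whereas Mt4 is known from differentiating cells of stratified squamous epithelia. Glucocorticoids and oxidative stress are further known inducers of Mt1 and Mt2.

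The metallothionein genes lie side by side on the plus strand of mouse chromosome 8. In mm10 with GENCODE M21 models, Mt4 runs from 94137197 to 94139031, Mt3 from 94152607 to 94154146, Mt2 from 94172664 to 94173568 and Mt1 from 94179082 to 94180327. Each has 3 exons, only 5513 bases separate Mt2 from Mt1, and the cluster spans 43131 bases. Mtf1 is on chromosome 4 from 124802104 to 124849800, and Slc30a1 is on chromosome 1 from 191906767 to 191913247. The promoters of the 3 metallothioneins measured in these cells are shown because Mt1 and Mt2 move together in the cells below, whereas Mt4 was rare. Each line gives the 250 bases before the RefSeq start (GRCm38.p6, plus strand), at chr8:94178839-94179088 for Mt1, chr8:94172368-94172617 for Mt2 and chr8:94136954-94137203 for Mt4. Capitals mark the metal response element core, searched as TGCACNC or TGCGCNC on both strands.
Mt1: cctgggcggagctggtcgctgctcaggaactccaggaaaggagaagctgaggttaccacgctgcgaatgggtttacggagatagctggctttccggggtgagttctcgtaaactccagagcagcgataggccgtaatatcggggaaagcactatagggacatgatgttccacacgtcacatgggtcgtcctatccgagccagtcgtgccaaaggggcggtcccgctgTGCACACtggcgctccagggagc
Mt2: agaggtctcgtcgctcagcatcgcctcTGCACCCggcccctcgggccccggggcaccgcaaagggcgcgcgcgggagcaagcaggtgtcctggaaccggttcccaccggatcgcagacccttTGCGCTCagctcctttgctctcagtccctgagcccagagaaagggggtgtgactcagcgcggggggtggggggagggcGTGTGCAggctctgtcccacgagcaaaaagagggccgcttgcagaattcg
Mt4: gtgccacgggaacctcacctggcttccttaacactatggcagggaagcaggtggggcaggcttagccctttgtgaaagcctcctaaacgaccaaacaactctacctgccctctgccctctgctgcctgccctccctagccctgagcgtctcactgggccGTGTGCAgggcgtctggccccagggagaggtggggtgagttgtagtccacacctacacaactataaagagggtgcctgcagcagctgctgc

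The search ran over 300 bases, from 250 before to 50 after the RefSeq start. Mt1 held 3 cores, of which 1 lay before the start and 2 after it, within a stretch of 25 bases at chr8:94179091-94179115 that reads TGCACTCcgcccgaaaagTGCGCTC. Mt2 held 4 cores, 3 of them before the start. Slc30a1 held 2 cores, Mt4 held 1 and Mtf1 held none. Among 32851 RefSeq promoters of the same length, 25.7% held at least 1 core, 7.11% at least 2, 1.97% at least 3 and 0.517% at least 4. An antioxidant response element core, searched as TGACNNNGC on both strands, was found 1 time in Mt2 and 1 time in Slc30a1, and 12.4% of all promoters held it. None of these matches overlapped. A match is a description of letters and not a measured binding site. The RefSeq start is an annotated position, and where transcription began in these cells was not measured. Bases further than 50 after it were not searched, so a gene without a core here may hold one there. The same holds for further cores and antioxidant response elements of any of these genes, Mt1 included. The counts therefore compare the genes by annotated start only. The Mt1 and Mt2 transcripts were 76.4% identical where aligned, and their longest shared run was 20 bases. Mt3 was detected in 1 cell only, a CD44-negative alpha6+ cell at 2.51 TPM, and is not followed further.

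The cells matched their keratinocyte label in 3 of the 5 groups. Keratinocyte markers led in every reporter-positive, CD44-negative alpha6+ and after-transfer cell, and the median summed TPM of the immune list was 0 in every group. The CD44+ reporter-negative gate held 12 keratinocyte-led cells, 2 led by pericyte or muscle markers and 1 led by Schwann cell markers. The alpha6-negative gate held 26 keratinocyte-led cells, 14 led by fibroblast markers and 3 led by pericyte or muscle markers. Median genes per library ranged from 5521 in alpha6-negative to 7760 in reporter-positive cells, and the median share of ERCC spike-in RNA was 2.78% in alpha6-negative cells against 0.134% to 0.541% elsewhere. A set of 8 ribosomal RNA rows took a median of 71.5% to 75.1% of TPM. Y-linked transcripts without Xist were found in 99 reporter-positive, 39 alpha6-negative and 170 after-transfer cells, and the other 6, 4 and 7 cells had neither or both kinds. Xist without Y-linked transcripts was found in 12 of 15 CD44+ reporter-negative cells. The CD44-negative alpha6+ plate held 42 cells of the Xist kind and 44 of the Y-linked kind. Sex and gate therefore cannot be told apart between reporter-positive and CD44+ reporter-negative cells.

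Mt1 was detected in most cells of the 4 alpha6+ or after-transfer groups. In CD44-negative alpha6+ cells it was detected, at a TPM of at least 1, in every one of the 91 cells, with a lowest value of 5.04, a median of 173.93 and a highest value of 653.86 TPM. Reporter-positive cells ranged from 0 to 5492 TPM with a median of 117.77, and 94.3% of them had the transcript (exact Clopper-Pearson 95% interval 87.98% to 97.87%). After-transfer cells were close to them in the middle of the distribution, with a median of 122.28, and ranged from 0 to 3965 TPM. The 15 CD44+ reporter-negative cells ranged from 0 to 559.85 TPM with a median of 228.29. Alpha6-negative cells stood lowest, with a median of 4.76, a highest value of 163.2 and detection in 51.2% of cells (35.5% to 66.7%). The order by median was CD44+ reporter-negative, CD44-negative alpha6+, after transfer, reporter-positive and alpha6-negative. The interquartile ranges overlapped between all neighbours in that order, and the alpha6-negative range ended at an upper quartile of 65.5 TPM, under the lower quartile of 116.57 in CD44-negative alpha6+ cells.

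Mt2, which encodes the other widely expressed metallothionein, had a median of 140.66 and a range of 0 to 628 TPM in CD44-negative alpha6+ cells. On the log2 scale it spread more over cells than Mt1 in every group but the alpha6-negative. Reporter-positive cells had a median of 46.1 TPM and a highest value of 13915. After-transfer cells had a median of 24.3 and a highest value of 3332, and 66.1% of them had the transcript (58.62% to 73.03%) against 94.5% (87.6% to 98.2%) of CD44-negative alpha6+ cells. CD44+ reporter-negative cells had a median of 198.01 and a range of 0 to 725 TPM. Alpha6-negative cells had a median of 0, a highest value of 57.2 TPM and detection in 27.9% of cells (15.3% to 43.7%). All groups overlapped at 0, and the groups separated in how many cells reached high values.

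**Figure D1:**
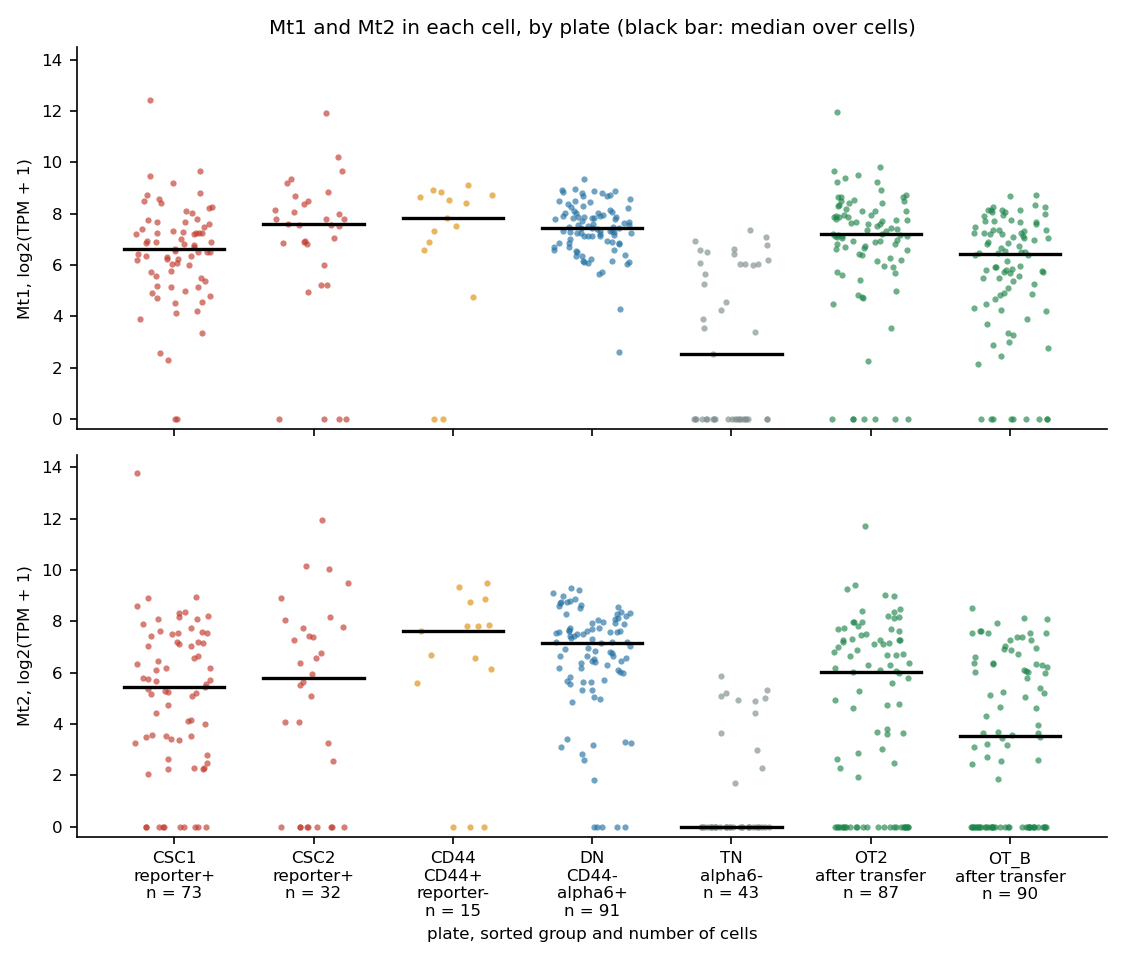
Each point is 1 cell, with Mt1 above and Mt2 below on a log2(TPM + 1) axis, arranged by plate, and the black bar is the median over the cells of that plate. Mt1 is detected in all 91 DN cells, every other plate has cells at 0, and the TN plate has the lowest median for both genes.

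For the sum of Mt1 and Mt2, the share of cells at 100 TPM or more was 93.4% (86.2% to 97.5%) in CD44-negative alpha6+ cells, 80% (51.9% to 95.7%) in CD44+ reporter-negative cells, 65.7% (55.8% to 74.7%) in reporter-positive cells and 62.7% (55.1% to 69.9%) after transfer. In alpha6-negative cells it was 16.3% (6.81% to 30.7%). The 3 cells of the CD44+ gate under 100 TPM were those not led by keratinocyte markers, and all 12 keratinocyte-led cells reached it (100%, 73.5% to 100%). The SD of log2(TPM + 1) of the sum over cells was 1.11 in CD44-negative alpha6+ cells and 2.45 to 3.34 in the other groups, but 0.982 in those 12 cells.

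A few cells carried very high levels. In reporter-positive cells, well F3 of plate CSC1 had 5492 TPM of Mt1 and 13915 TPM of Mt2, which was 33.6% of the whole sum of Mt1 and Mt2 in that group. That library had 2357 genes, close to the limit for use. Its repeat in plate OT_C had 6224 TPM of Mt1 and 11995 TPM of Mt2, but only 1179 genes. Well F10 of plate CSC2 had 3931 and 3915 TPM of Mt1 and Mt2, and its repeat had 3586 and 4564. After transfer, well B1 of plate OT2 had 3965 and 3332 TPM. Without its highest cell, the mean of the sum in reporter-positive cells fell from 550.1 to 368.8 TPM, while in CD44-negative alpha6+ cells it went from 380.6 to 372.9. Near the limit for use, the 5 used libraries with at least 2000 but under 2500 genes ranged from 0 to 19406 TPM for the sum, and the 10 unused libraries with at least 1500 but under 2000 ranged from 0 to 1865 TPM.

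Plates of the same label differed. The Mt1 median was 99.2 TPM in CSC1 and 191.76 TPM in CSC2, and the Mt2 medians were 42.2 and 55.1. After transfer the Mt1 median was 148.45 TPM in OT2 and 85.6 in OT_B, and the Mt2 medians were 64.4 and 10.6. The labels tie no plate to an animal, so a plate and an animal cannot be told apart. Depth also moved with the level in some groups. The Spearman correlation over cells between the sum and the number of genes detected was 0.54 after transfer, 0.39 in reporter-positive cells, 0.29 in alpha6-negative cells, -0.41 in the 15 CD44+ reporter-negative cells and 0.00 in CD44-negative alpha6+ cells. In libraries with 6000 to 8000 genes, the median of the sum was 307.22 TPM in 69 CD44-negative alpha6+ cells, 356.7 in 10 CD44+ reporter-negative cells, 176.97 in after-transfer cells, 136.5 in 58 reporter-positive cells and 67.05 in 15 alpha6-negative cells.

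**Figure D2:**
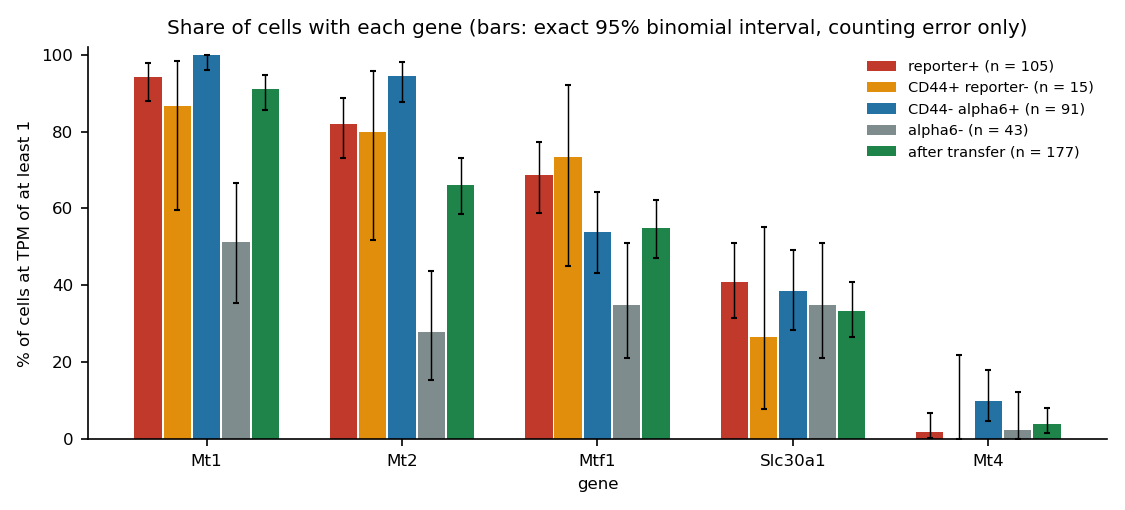
Bars give the percentage of cells in each group with the gene at a TPM of at least 1, and whiskers give the exact 95% binomial interval, which covers counting error only. Mt1 and Mt2 are lowest in alpha6-negative cells, Slc30a1 intervals overlap among all 5 groups, and Mt4 is rare everywhere.

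Mt1 and Mt2 varied together from cell to cell. Their Spearman correlation over cells was 0.73 in reporter-positive cells, 0.90 in CD44+ reporter-negative cells (n = 15), 0.53 in CD44-negative alpha6+ cells (n = 91), 0.54 in alpha6-negative cells (n = 43) and 0.78 after transfer. Within plates it was 0.78 in CSC1 (n = 73), 0.74 in CSC2 (n = 32), 0.80 in OT2 (n = 87) and 0.75 in OT_B (n = 90). Both values come from the same library and share its scaling. Mt2 was rarely seen without Mt1: 85 reporter-positive cells had both, 14 had Mt1 alone and 1 had Mt2 alone. After transfer 45 had Mt1 alone and 1 had Mt2 alone.

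The balance between the pair was not the same everywhere. Among cells with at least 10 TPM of Mt1, the median ratio of Mt2 to Mt1 was 0.80 in CD44-negative alpha6+ cells, 0.59 in CD44+ reporter-negative cells, 0.48 in reporter-positive cells, 0.37 after transfer and 0.01 in alpha6-negative cells. Mt2 exceeded Mt1 in 46.2% of these CD44+ reporter-negative cells (6 of 13), in 37.8% of CD44-negative alpha6+ cells, in 18.8% of reporter-positive cells, in 11.1% of after-transfer cells and in 0 of 20 alpha6-negative cells. The interquartile ranges of the ratio overlapped, at 0.39 to 1.21 in CD44-negative alpha6+ and 0.03 to 0.75 in after-transfer cells. The limit of 10 TPM is set on Mt1 alone, so cells with Mt2 and little Mt1 are left out. In alpha6-negative cells 1 such cell had 0 TPM of Mt1 and 36.3 TPM of Mt2. A missed Mt2 transcript counts as a ratio of 0.

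**Figure D3:**
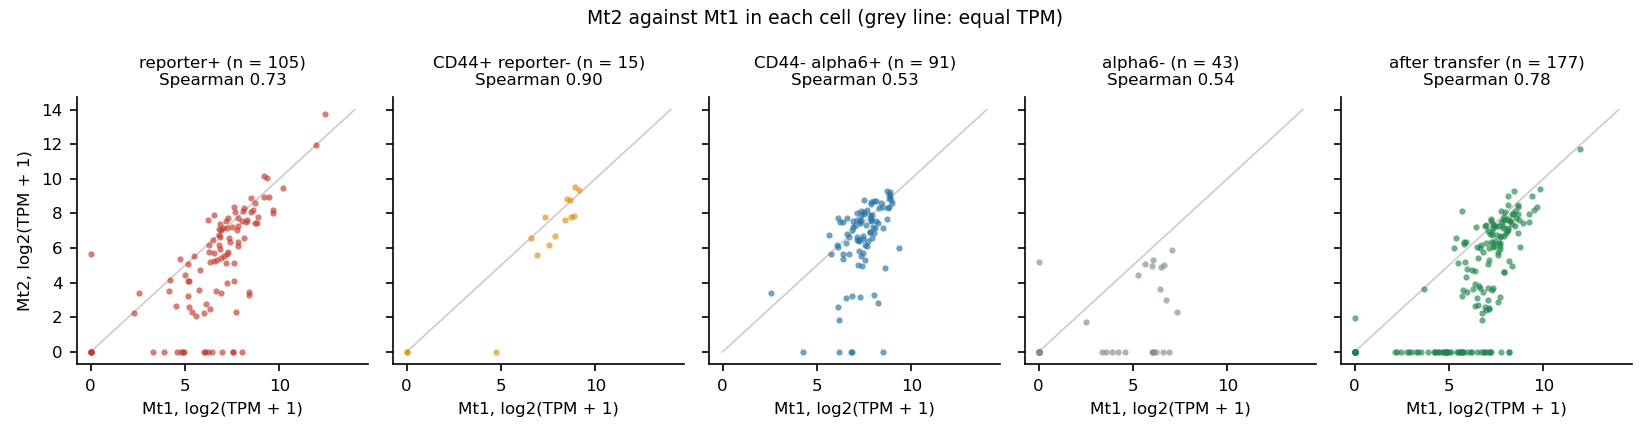
Each panel is 1 group and each point 1 cell, with Mt1 on the x axis and Mt2 on the y axis, both as log2(TPM + 1), and the grey line marks equal TPM. Most cells lie on or under the line, and a row of cells at 0 for Mt2 is longest after transfer, where 45 cells had Mt1 alone.

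Differences between gates were described in 6 comparisons by the log2 ratio of group means after adding 1 TPM, over 12133 genes whose mean of the 5 group means was at least 1 TPM. All 5 genes passed that filter, with Slc30a1 nearest to it at 1.65 TPM and Mt4 at 4.56 TPM through few cells. Since the set was chosen on these levels, the counts called at 2-fold are given only beside the share of all genes called. For these 5 genes, differences of mean log2(TPM + 1) are also drawn below where both groups held the gene. They give rare very high cells less weight, and the text prints them for part of the comparisons only.

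Between CD44-negative alpha6+ and alpha6-negative cells, which differ in surface integrin alpha6, Mt1 and Mt2 were both past 2-fold higher in the alpha6+ cells, where 8.65% of all genes were (29.9% in either direction). Mean Mt1 was 208.9 against 33.9 TPM, a log2 difference of 2.59. Mean Mt2 was 171.7 against 6.99 TPM, a log2 difference of 4.43. Differences of mean log2 were larger, at 4.54 and 5.28. Among libraries with 6000 to 8000 genes the differences were 1.81 for Mt1 and 4.19 for Mt2, and among keratinocyte-led cells they were 2.75 and 4.89.

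The alpha6-negative cells themselves divided by cell type. The 14 fibroblast-led cells ranged from 0 to 128.88 TPM for the sum of Mt1 and Mt2 with a median of 73.6, and 12 of them had Mt1. The 26 keratinocyte-led cells ranged from 0 to 191.2 TPM with a median of 0, and 10 of them had Mt1. All 3 pericyte- or muscle-led cells were at 0. In the CD44+ reporter-negative gate, the 12 keratinocyte-led cells ranged from 166.38 to 1217 TPM with a median of 589. Of the other 3 cells of that gate 2 were at 0 and 1 had 26.2 TPM.

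Reporter-positive cells gave opposite signs against CD44-negative alpha6+ cells, depending on how cells were averaged. For Mt1 the log2 ratio of means was 0.34 and the difference of mean log2 was -0.85. For Mt2 they were 0.73 and -1.45. Without the highest cell of each group the Mt2 ratio was -0.10, and with TPM rescaled after leaving out spike-in and ribosomal rows the ratios were -0.13 for Mt1 and -0.10 for Mt2. Neither gene was past 2-fold by group means, whereas Mt4 was called lower, where 4.09% of all genes were, and none of the 5 was called higher, where 8.06% were.

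The reporter-positive and CD44+ reporter-negative gates, set apart by mCherry and CD34, had none of the 5 genes past 2-fold in either direction, where 24.9% of all genes were. The log2 ratio of means was 0.04 for Mt1 and 0.31 for Mt2, and the differences of mean log2 were -0.25 and -1.15. With rescaled TPM the ratios were -0.44 and -0.52, so the direction of both turned. Against only the 12 keratinocyte-led cells of the CD44+ gate, reporter-positive cells gave ratios of -0.27 and -0.01, and the differences of mean log2 were -1.56 for Mt1 and -2.69 for Mt2. Between CD44+ reporter-negative and CD44-negative alpha6+ cells, 1 gene was called, Mt4, which was listed at 0 in the first group, beside 5.37% of all genes called lower. There Mt1 differed by 0.30 and Mt2 by 0.43 in log2 ratio of means, and by -0.60 and -0.30 in mean log2. Those negative signs were not seen among keratinocyte-led cells, where 12 CD44+ cells against 91 gave 0.71 for Mt1 and 1.24 for Mt2 in mean log2, and 0.61 and 0.75 by means.

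After transfer, against reporter-positive cells, Mt2 was past 2-fold lower, where 7.13% of all genes were, and Mt4 past 2-fold higher, where 2.33% were (9.46% in either direction). Mean Mt2 was 99.2 against 285.9 TPM, a log2 difference of -1.52, and the difference of mean log2 was -1.001. It fell short of 2-fold at -0.93 without the highest cell of each group, at -0.71 in libraries with 6000 to 8000 genes and at -0.89 with rescaled TPM. With OT2 left out it was -2.38, and with OT_B left out -0.96. Mt1 differed by -0.58 and the median of all genes by -0.19. Against CD44-negative alpha6+ cells, only Mt4 was past 2-fold by group means, on the lower side, where 3.96% of all genes were. None was past it on the higher side, where 3.03% were. Mt1 differed by -0.25 by means and by -1.23 in mean log2. Mt2 differed by -0.79 by means and by -2.45 in mean log2, in the same direction by both, and by -1.03 by means without the highest cell of each group. Strain, sorting gate and therapy changed together between these groups and cannot be told apart.

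**Figure D4:**
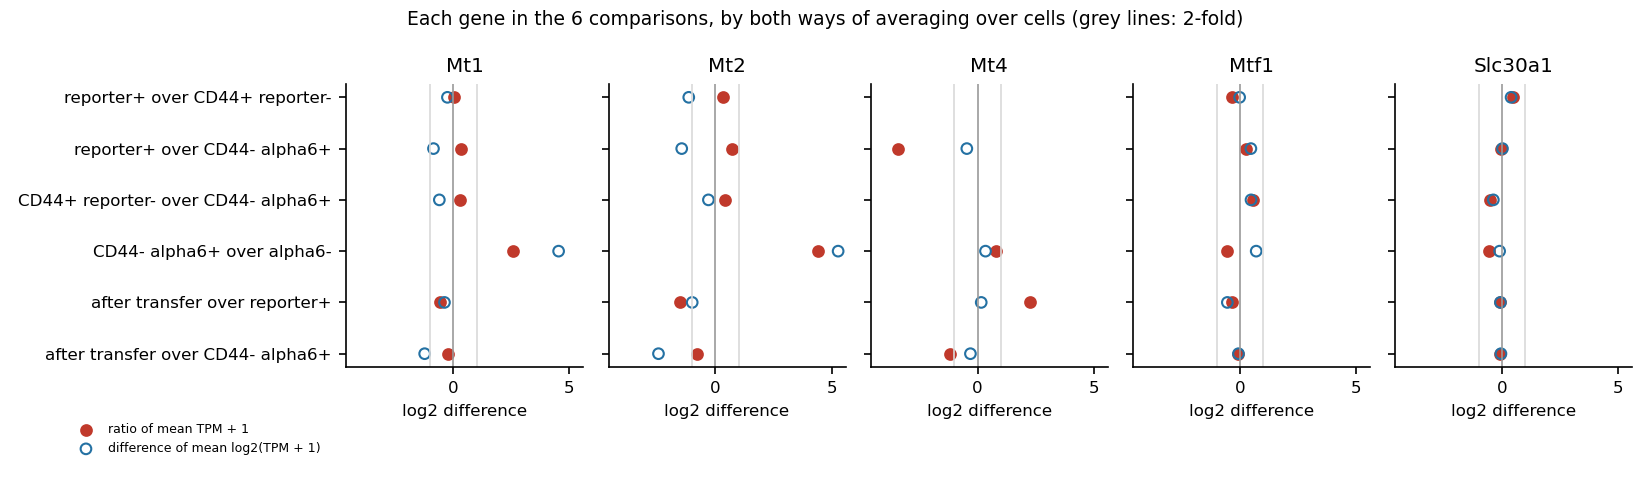
Each panel is 1 gene and each line 1 comparison; filled points are log2 ratios of mean TPM + 1 and open points are differences of mean log2(TPM + 1), with grey lines at 0 and at 2-fold, and no point where a group is at 0 throughout. For Mt1 and Mt2 both points lie far to the right between CD44-negative alpha6+ and alpha6-negative cells. They fall on opposite sides of 0 in every comparison among reporter-positive, CD44+ reporter-negative and CD44-negative alpha6+ cells.

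Mt4, the metallothionein of stratified epithelium, was rare. It was detected in 9 of 91 CD44-negative alpha6+ cells (9.89%, 4.62% to 17.9%), 7 after-transfer cells (3.95%, 1.605% to 7.98%), 2 reporter-positive cells (1.90%, 0.232% to 6.71%) and 1 of 43 alpha6-negative cells (2.33%, 0.0589% to 12.3%). It was detected in 0 of 15 CD44+ reporter-negative cells, which allows a share of up to 20% when the limit is set at 3 cells, and 21.8% by the exact interval. In CD44-negative alpha6+ cells the values were 742.84, 114.11, 95.72, 32.05, 28.35, 16.71, 14.98, 13.88 and 7.44 TPM. The highest cell alone made up 69.7% of the group's sum. After transfer the values were 633.16, 52.59, 36.74, 32.95, 23.47, 22.02 and 16.12 TPM. Group means of Mt4, and the calls made from them, therefore turn on a handful of cells. The log2 ratio of after-transfer to reporter-positive means was 2.26, and 0.94 without the highest cell of each group. Between CD44-negative alpha6+ and alpha6-negative cells it was 0.80, and 2.199 without those cells. Between after-transfer and CD44-negative alpha6+ cells it was -1.18, and -0.45 with OT_B left out.

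The Mt4 cells of the CD44-negative alpha6+ plate also had keratins of differentiating epidermis. Krt1 was above the median of the group in 8 of the 9 cells, with a median of 1132 TPM against 26.4 in the whole group. Krt10 was above the group median in 6 of 9, with a median of 164.05 against 7.21 TPM. All 9 of these cells had Mt1, from 18.35 to 505.19 TPM, and 8 had Mt2. After transfer 4 of 7 Mt4 cells lay above the group median of Krt10 and 3 of 7 above that of Krt1. The single Mt4 cell of the alpha6-negative gate, at 271.5 TPM, had no Krt1, Krt10, Mt1 or Mt2. Likeness of other genes to Mt4 over cells was led by Cldn10 at a mean Spearman of 0.34, then Ttc9, Snai3, Pm20d2, Padi3, Sct, Slc16a11 and Top1mt at 0.23 to 0.28. Of these 8 genes, 5 had a correlation of 1 in alpha6-negative cells, where a single cell held Mt4, so nothing is read from this ranking.

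Mtf1, which encodes the zinc sensor, had lower group medians than Mt1 in every gate. Its median was 5.95 TPM in CD44+ reporter-negative cells, 4.87 in reporter-positive, 1.86 in CD44-negative alpha6+, 1.77 in after-transfer and 0 in alpha6-negative cells. Highest values were 87.1, 55.7, 51.9, 45.4 and 328.1 TPM in the same order, and the interquartile ranges of neighbours overlapped. It was detected in 68.6% (58.8% to 77.3%) of reporter-positive and 34.9% (21.01% to 50.93%) of alpha6-negative cells. The alpha6-negative mean of 10.7 TPM fell to 3.11 without its highest cell. By group means no comparison reached 2-fold, with log2 ratios between -0.54 and 0.58. The log2 ratio of medians plus 1 TPM was past 1 in size in 4 of the 6 comparisons, at 1.04 for reporter-positive over CD44-negative alpha6+ cells, 1.28 for CD44+ reporter-negative over CD44-negative alpha6+ cells, 1.52 for CD44-negative alpha6+ over alpha6-negative cells and -1.08 for after-transfer over reporter-positive cells. Without the highest cell of each group, the ratio of CD44-negative alpha6+ to alpha6-negative means turned from -0.54 to 0.87.

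Slc30a1, the plasma membrane zinc exporter, was near the detection limit. Means were 1.57 TPM in reporter-positive, 0.846 in CD44+ reporter-negative, 1.61 in CD44-negative alpha6+, 2.79 in alpha6-negative and 1.44 in after-transfer cells, and no cell was above 22.7 TPM. Detection ran from 26.7% (7.79% to 55.1%) in CD44+ reporter-negative to 40.95% (31.45% to 50.98%) in reporter-positive cells. No comparison reached 2-fold, and log2 ratios of means lay between -0.54 and 0.48. Detection was 34.2% in CSC1 and 56.3% in CSC2.

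The Spearman correlation of the sum with Mtf1 over cells was between -0.12 and 0.16 in the 5 groups. With Slc30a1 it was -0.12 after transfer, -0.10 in CD44-negative alpha6+ cells, 0.15 in reporter-positive cells, -0.15 in alpha6-negative cells and -0.41 in the 15 CD44+ reporter-negative cells. With Slc30a1 detected in a minority of cells of each group, these values are weak and are no finding.

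Other zinc transporters were read from lists chosen with earlier results of these data known. Of 9 further genes of the Slc30a family, listed as exporters, 6 passed the filter, and of 14 Slc39a importers 11 did. The means of group means of those 6 ran from 1.64 TPM for Slc30a2 to 14.3 TPM for Slc30a7. Between CD44-negative alpha6+ and alpha6-negative cells, 0 of 6 exporters were past 2-fold higher and 1 lower, and of the importers 0 were higher and 2 lower, beside 8.65% and 21.2% of all genes. The importers past 2-fold were Slc39a14, with means of 6.93 against 53.1 TPM, and Slc39a2, with 0.740 against 5.22. In mean log2 they differed by -1.08 and -0.27. Slc39a14 was detected in 39.6% against 44.2% of cells, and Slc39a2 in 12.1% against 11.6%. Slc39a14 is a zinc importer that also carries iron and manganese. Between reporter-positive and CD44+ reporter-negative cells, Slc30a7, a Golgi zinc transporter, was higher with means of 16.5 against 6.61 TPM, and Slc30a2 was lower with 0.0515 against 5.63, the latter from 1 of 15 cells. That is 1 of 6 exporters in each direction, beside 11.3% of all genes higher and 13.6% lower. In the remaining 4 comparisons at most 1 gene of either list passed 2-fold in each direction. All genes were past it in 2.33% to 13.5% of cases higher and 3.96% to 7.13% lower.

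Lists of other known inducers and partners of metallothioneins were described by counts in the same way. Among 10 glucocorticoid-response genes, 6 were past 2-fold lower in reporter-positive than in CD44+ reporter-negative cells, beside 13.6% of all genes, and the list's median log2 ratio was -1.42 against 0 for all genes. Fkbp5, a co-chaperone of the glucocorticoid receptor, had means of 0.487 against 11.7 TPM, and Klf9, a transcription factor induced by the receptor, 0.328 against 7.83. In CD44+ reporter-negative against CD44-negative alpha6+ cells 5 of the 10 were higher, beside 13.5% of all genes, with a median of 0.90 against 0.03. By ratios of group means, Mt1 and Mt2 were not past 2-fold in either of these comparisons. In mean log2 over all cells, Mt2 was past it in the first, at -1.15, but not in the second, at -0.30. Among keratinocyte-led cells, as given above, Mt2 was past it in mean log2 in both, lower in the first and higher in the second. Mt1 was past it among those cells in the first only. The list counts are by ratios of group means over all 15 CD44+ reporter-negative cells, of which 12 were keratinocyte-led. No list value for those 12 cells alone is given, so the list and these Mt1 and Mt2 values are not like for like. A link to the list was not tested. The Xist and Y-linked split given above runs along the first of these comparisons.

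Among 12 NRF2 target genes, which answer oxidative stress, 4 were higher in reporter-positive than in CD44+ reporter-negative cells, beside 11.3% of all genes. Hmox1, heme oxygenase, led with means of 30.7 against 3.295 TPM. Me1, the malic enzyme of the cytosol, had 1.94 TPM in CD44-negative alpha6+ against 15.1 in alpha6-negative cells, 1 of 2 genes of the list past 2-fold lower there beside 4 higher, where 21.2% and 8.65% of all genes were. Among 12 genes of hypoxia and glycolysis, 7 were higher in reporter-positive than in CD44+ reporter-negative cells and 6 were higher in CD44-negative alpha6+ than in alpha6-negative cells, beside 11.3% and 8.65% of all genes. Adm, which encodes adrenomedullin, and Car9, a carbonic anhydrase, had means of 10.5 and 7.78 TPM in reporter-positive cells and were listed at 0 in CD44+ reporter-negative cells. Among 11 heat shock genes at most 1 passed 2-fold in each direction in any comparison, beside 2.33% to 13.5% of all genes higher and 3.96% to 21.2% lower. Hspb1, a small heat shock protein, had 781 TPM in reporter-positive against 182.7 in CD44-negative alpha6+ cells, and Hspa1a, an inducible chaperone, 28.9 after transfer against 13.7 in reporter-positive cells. Each was the 1 gene of the list past 2-fold higher there, beside 8.06% and 2.33% of all genes.

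Copper was covered by 10 tested genes of 11 listed. Slc31a2, a copper transporter of endosomes, was 19.5 TPM in reporter-positive against 3.12 in CD44+ reporter-negative cells, 1 of 10 genes past 2-fold higher beside 1 lower, where 11.3% and 13.6% of all genes were. Steap3, a metal reductase, was 3.88 TPM in CD44-negative alpha6+ against 18.9 in alpha6-negative cells, where 2 of 10 were lower and 1 higher, beside 21.2% and 8.65% of all genes.

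The genes whose level over cells was most like the sum of Mt1 and Mt2 were ranked by the mean Spearman correlation within the 4 groups of at least 30 cells, over 8263 genes detected in at least 20% of the cells of each. Hspe1, a chaperonin of mitochondria, came first at 0.46, followed by Ppia, the prolyl isomerase cyclophilin A, at 0.44 and Oaz1, an inhibitor of polyamine synthesis, at 0.43. Krtcap2 at 0.41, Sod1 at 0.40, H2afz at 0.40, Col16a1 at 0.39 and S100a10 at 0.39 completed the top 8. Sod1 encodes a superoxide dismutase that needs copper and zinc. The median over all ranked genes was 0.09. For Hspe1 the value was 0.69 after transfer, 0.58 in reporter-positive cells, 0.38 in alpha6-negative cells and 0.19 in CD44-negative alpha6+ cells. The points share library and depth, and the number of genes detected moved with the sum in the same groups, and its part in the ranking was not tested. In the alpha6-negative group the sum also differed between fibroblast-led and keratinocyte-led cells, as given above. The part of cell type in the ranking was not tested either.

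Genes of differentiating, suprabasal keratinocytes ran the other way. Of 18 listed genes 12 could be ranked, and all 12 had a mean correlation with the sum below 0, with a median of -0.22 against 0.09 for all ranked genes. Flg, split over several rows, was left out. Medians by group were -0.42 after transfer, -0.33 in reporter-positive cells, -0.16 in CD44-negative alpha6+ cells and -0.16 in alpha6-negative cells, with 12, 12, 12 and 8 of the 12 genes below 0. The lowest were Cst6, a protease inhibitor of the cornified layer, at -0.37 and Sbsn, suprabasin, at -0.36. For Sprr1a, a cornified envelope precursor, the mean was -0.31. In libraries with 6000 to 8000 genes the medians were -0.40 after transfer, -0.40 in reporter-positive cells and -0.21 in CD44-negative alpha6+ cells, but 0.08 in the 15 alpha6-negative cells. Within plates they were -0.30 in CSC1, -0.43 in CSC2, -0.49 in OT2 and -0.38 in OT_B. The same genes had a median correlation with the number of genes detected of -0.34 after transfer and -0.22 in reporter-positive cells.

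By group means the list followed no single direction with Mt1 and Mt2. Sprr1a had a mean of 593 TPM in reporter-positive against 3.12 in CD44+ reporter-negative cells, where 8 of 15 tested suprabasal genes were past 2-fold higher and 3 lower, beside 11.3% and 13.6% of all genes. Cst6 had 2.32 TPM in CD44-negative alpha6+ against 445.8 TPM in alpha6-negative cells, where 8 of 15 were lower and 1 higher, beside 21.2% and 8.65%. Cst6 differed there by -7.07 in log2 ratio of means and by -1.89 in mean log2. The list's median was -1.26 by means and -0.19 in mean log2. For after-transfer over reporter-positive cells that median was -0.08 by means and 0.80 in mean log2. Its sign was the same by both in the other comparisons. The alpha6-negative gate also held cells not led by keratinocyte markers, and the part of cell type was not tested.

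Repeat libraries of the same well show how closely a level repeated between libraries. Losses shared by both libraries of a well are not covered, and only pairs that were each other's best match were kept. Among 38 wells of OT_B and OT1, 46 of OT2 and OT_A, 71 of CSC1 and OT_C, 29 of CSC2 and OT_D and 14 of CD44 and OT_D whose pair of libraries were each other's best match over all genes, the Spearman correlation between repeats was 0.926 for Mt1, 0.935 for Mt2 and 0.963 for their sum. It was 0.711 for Mtf1 and 0.759 for Slc30a1. Of the wells with Mt1 in either library 96.8% had it in both, and the figures were 89.9% for Mt2, 78.7% for Mtf1 and 65.6% for Slc30a1. Mt4 was seen in both libraries in 1 of 5 such wells. Where both libraries had the gene, the median size of the log2(TPM + 1) difference was 0.39 for Mt1, 0.34 for Mt2 and 0.82 for Mtf1. Of 36 wells with Mt1 in both OT_B and OT1, the OT_B library read higher in 5, and the means over 38 wells were 123.6 and 200.3 TPM. CSC1 and its repeats had means of 141.97 and 152.5 TPM over 71 wells, and OT2 and its repeats 208.3 and 165.3 TPM over 46 wells. The same cells thus gave different plate means, by up to the gap between OT_B and OT1.

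**Figure D5:**
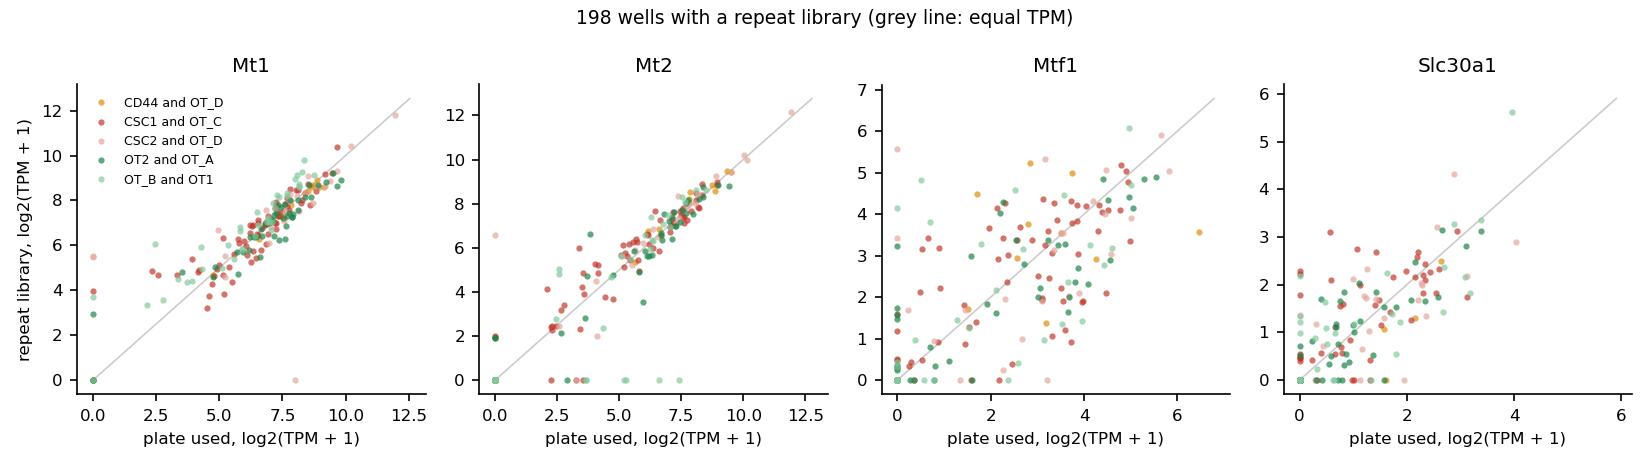
Each point is 1 well with its used library on the x axis and its repeat on the y axis, as log2(TPM + 1), coloured by plate pair, with a grey line at equal TPM. Mt1 and Mt2 follow the line, with Spearman values of 0.926 and 0.935 over all wells, and Mtf1 and Slc30a1 scatter more, at 0.711 and 0.759.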

How the data were processed

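Smart-seq2 libraries of 908 sorted mouse cells, on 11 plates, were deposited as TPM values per gene. Per the submitters' processing notes, Bowtie2 2.2.9, RSEM 1.2.30 and mm10 were used; their settings are not given in the sources used here. In the deposited TPM tables each library is scaled to the same sum over 46517 gene and 92 ERCC rows, so ribosomal rows and spike-ins lower every other value, and read depth is unknown. The number of genes reaching 1 TPM was used in place of depth.

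Libraries with at least 2000 such genes were used, from 7 plates: 105 reporter-positive, 15 CD44+ reporter-negative, 91 CD44-negative alpha6+, 43 alpha6-negative and 177 after-transfer cells, 431 in all. Folds are ratios of mean TPM + 1, called at 2-fold over genes with a mean of group means of at least 1 TPM. Their calculation was tested on simulated data. The simulation started from genes with higher after-transfer means than Mt4, Mtf1 and Slc30a1. It held no rare very high cells, so it does not cover calls that turn on such cells. Shares have exact 95% binomial intervals. With 1 sample a group, no test between groups was made. Named genes were all 5 members, the 2 largest folds past 2-fold in each list, and the 8 genes most like the members over cells. Suprabasal Sbsn was named after its values were seen. The members and lists were chosen with earlier results of these data known. Python 3.11.15, pandas 2.3.3 and scipy 1.17.1 were used. Alternatives were other pseudocounts, no filter on genes, a fixed range of genes, rescaled TPM, mean log2 values, marker and sex-transcript subsets, and plates left out.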

Additional observations from a re-analysis of the deposited data

How the results depend on the processing

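For the sum of Mt1 and Mt2, values are log2 ratios of group means. CD44-negative alpha6+ over alpha6-negative cells gave 3.19, 2.48 in libraries with 6000 to 8000 genes, 5.12 in mean log2 and 5.67 in mean log2 among keratinocyte-led cells. Reporter-positive over CD44-negative alpha6+ cells gave 0.53, -0.11 with TPM rescaled after leaving out ERCC and ribosomal rows, and -1.04 in mean log2. Reporter-positive over CD44+ reporter-negative cells gave 0.17, -0.47 when rescaled and -1.78 in mean log2 among keratinocyte-led cells. CD44+ reporter-negative over CD44-negative alpha6+ cells gave 0.36, -0.74 in mean log2, and 0.74 in mean log2 among keratinocyte-led cells, which leaves out 3 cells of the CD44+ gate. After-transfer over reporter-positive cells gave -0.996, and -1.73 without plate OT2. After-transfer over CD44-negative alpha6+ cells gave -0.47, -1.63 in mean log2 and -1.204 without plate OT2. Mt1 was detected in 89.6% of all cells used and in 95.7% of those in libraries with 6000 to 8000 genes. Over all same-well pairs with both libraries above the limit, the repeat correlation of the sum was 0.785, against 0.963 over mutual best matches. The first value includes wells, mainly of OT1 and OT_A, whose libraries were not each other's best match, so it is not the repeat error of 1 cell. Beyond the samples each alternative leaves out, the causes of these shifts were not tested. The other 65 alternative values for these results stayed within 1.5 times of the reported fold or, for shares, within its interval. Leaving out the highest cell of each group, and mean log2 among keratinocyte-led cells, were alternatives chosen after seeing the data. No paired analysis was possible because the result comes from no test and the labels name no animal. Unknown read depth limits what a value of 0 can show, most of all for Mt4 and Slc30a1.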
